A study of Mus musculus with 8 samples.

Results

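Here the genes of the mitochondrial ribosomal proteins were examined in regulatory T-cells (Tregs) grown in vitro from naïve mouse CD4+ T-cells. Members were all genes whose symbol starts with Mrpl (large subunit) or Mrps (small subunit) followed by a number, with pseudogenes left out. The count table listed 75 such genes among 28239 symbols, 46 of the large and 29 of the small subunit. All 75 reached a level of 2 CPM (the read count scaled to the library total) in at least 4 of the 8 libraries, as did 12700 genes in all. Mrpl2, Mrpl33 and Mrpl53 were not analysed here.

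The study compared Tregs from Alox15-/- mice, which lack the lipid mediator enzyme 15-lipoxygenase, with those from wild type (WT) mice, to ask how loss of this enzyme alters the transcriptional profile of differentiating Tregs. There were 4 libraries a group, from 4 mice each, on the C57BL/6 background. Per the methods, the study used female and male mice 10 to 12 weeks of age, with the WT and the Alox15-/- mice bought from different suppliers. In both groups naïve CD4+ T-cells were purified from spleen by negative selection, then held for 2 days with IL-2 at 100 U/ml, TGF-β at 5 ng/ml and 1 CD3/CD28 activation bead per cell. The groups therefore shared the whole differentiation regime and differed in genotype and in the source of the mice. RNA was profiled by MACE-seq, which counts tags from the 3′ end of transcripts. No further purification of Tregs on day 2 was described.

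The mitochondrial ribosome is the machine that translates the few proteins encoded by mitochondrial DNA, which are core subunits of the respiratory chain and of ATP synthase. Its RNA is made inside the organelle, while its proteins are encoded in the nucleus, translated in the cytosol and imported. The large subunit forms the peptide bond and holds the exit tunnel, and the small subunit binds the mRNA and decodes it. When T-cells are activated they expand their mitochondria, and protein synthesis in the organelle is then needed to build the respiratory chain.

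Library totals ran from 3723151 to 9538962 counts. The targeted gene went against the labels. Alox15 stood at 61.3 to 71.3 CPM in the libraries labelled Alox15-/- and at 1.84 to 8.94 CPM in those labelled WT, with a log2 fold change of 3.65 (SE 0.30; adjusted p = 1.08e-05, edgeR's quasi-likelihood test). The part of the gene that the allele removes was not given in the sources used here, so 3′ tags may or may not test it, and each direction given here is that of the labels. Summed CD4+ T-cell markers lay at 2591.4 to 3067.6 CPM in the libraries labelled Alox15-/- and 2890.1 to 3092.0 CPM in WT, and summed Treg markers at 1739.2 to 1946.9 and 1795.2 to 2023.0 CPM. Within the first sum, Cd4 itself lay at 207.6 to 300.5 CPM against 322.2 to 348.6 CPM in WT. Its groups did not overlap, as in 5.25% of all genes. Its log2 fold change was -0.32 (SE 0.11; adjusted p = 0.358, edgeR's quasi-likelihood test). Cd3e overlapped, at 247.6 to 284.6 against 246.6 to 275.4 CPM. Foxp3, the factor that defines Tregs, was at 72.6 to 113.5 CPM against 92.5 to 203.1 CPM. Markers of other cells moved with the labels. The 8 erythroid markers summed to 928.1 to 3380.0 CPM in the libraries labelled Alox15-/- and 53.2 to 140.7 CPM in WT. Of the 6 that reached the CPM minimum and were tested, 5 passed. The same sums were 143.4 to 363.7 and 58 to 83.2 CPM for 8 mast cell and basophil markers (7 of 8 tested passed). They were 48.9 to 332.8 and 12.8 to 19.5 CPM for 9 myeloid markers (5 of 6 tested passed). For 8 NK and γδ T-cell markers they were 76.7 to 151.5 and 21.7 to 42.1 CPM (5 of 5 tested passed). For 7 eosinophil markers they were 21.4 to 73.3 and 1.23 to 6.86 CPM (2 of 2 tested passed), and Ear2 and Ear6 were at 0 in every WT library. The 6 B-cell markers (1 of 2 tested passed) went the other way, at 5.62 to 8.06 against 8.13 to 22 CPM. The 2 CD8 T-cell markers (0 of 2 tested passed) lay at 12.1 to 21.7 against 21.2 to 33 CPM. The part of these cells in the results that follow was not tested.

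None of the 75 genes of the mitochondrial ribosome passed the test between the groups. Over all genes tested, 158 of 12700, or 1.24%, had an adjusted p under 0.05 (edgeR's quasi-likelihood test, Benjamini-Hochberg adjustment), split into 1.05% with higher and 0.197% with lower levels under the label Alox15-/-, and the lowest adjusted p of a mitochondrial ribosomal protein was 0.502. At an unadjusted p under 0.05 by the same test there were 2 of 75 (2.67%), both of the large subunit, against 7.84% of all genes. DESeq2 and limma-voom likewise called 0 of the 75. In none of the 75 did the 4 libraries of one group all lie above the 4 of the other, against 5.25% of all genes. The fitted log2 fold changes, libraries labelled Alox15-/- over WT, ran from -0.25 to 0.28.

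A p that misses the threshold does not show that levels are alike, so the interval of each difference was examined. All 75 had a 95% interval inside a 1.5-fold change in either direction, with the outermost bounds at -0.53 and 0.53 on the log2 scale. Among all genes tested 65.9% had an interval that narrow. Since precision depends on the level, the same share was taken over the 6781 genes tested within the CPM range of the members, where it was 90.3%. The members' log2 fold changes had a median standard error of 0.115. Their median biological coefficient of variation was 11.9%, against 12.4% for the tested genes in that CPM range and 14.2% for all genes tested. This is edgeR's fitted estimate per gene, without counting error and drawn towards that of other genes. It is not the spread seen between the libraries. In bulk RNA of this kind, fewer cells of a type and less RNA per cell cannot be told apart.

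**Figure D1:**
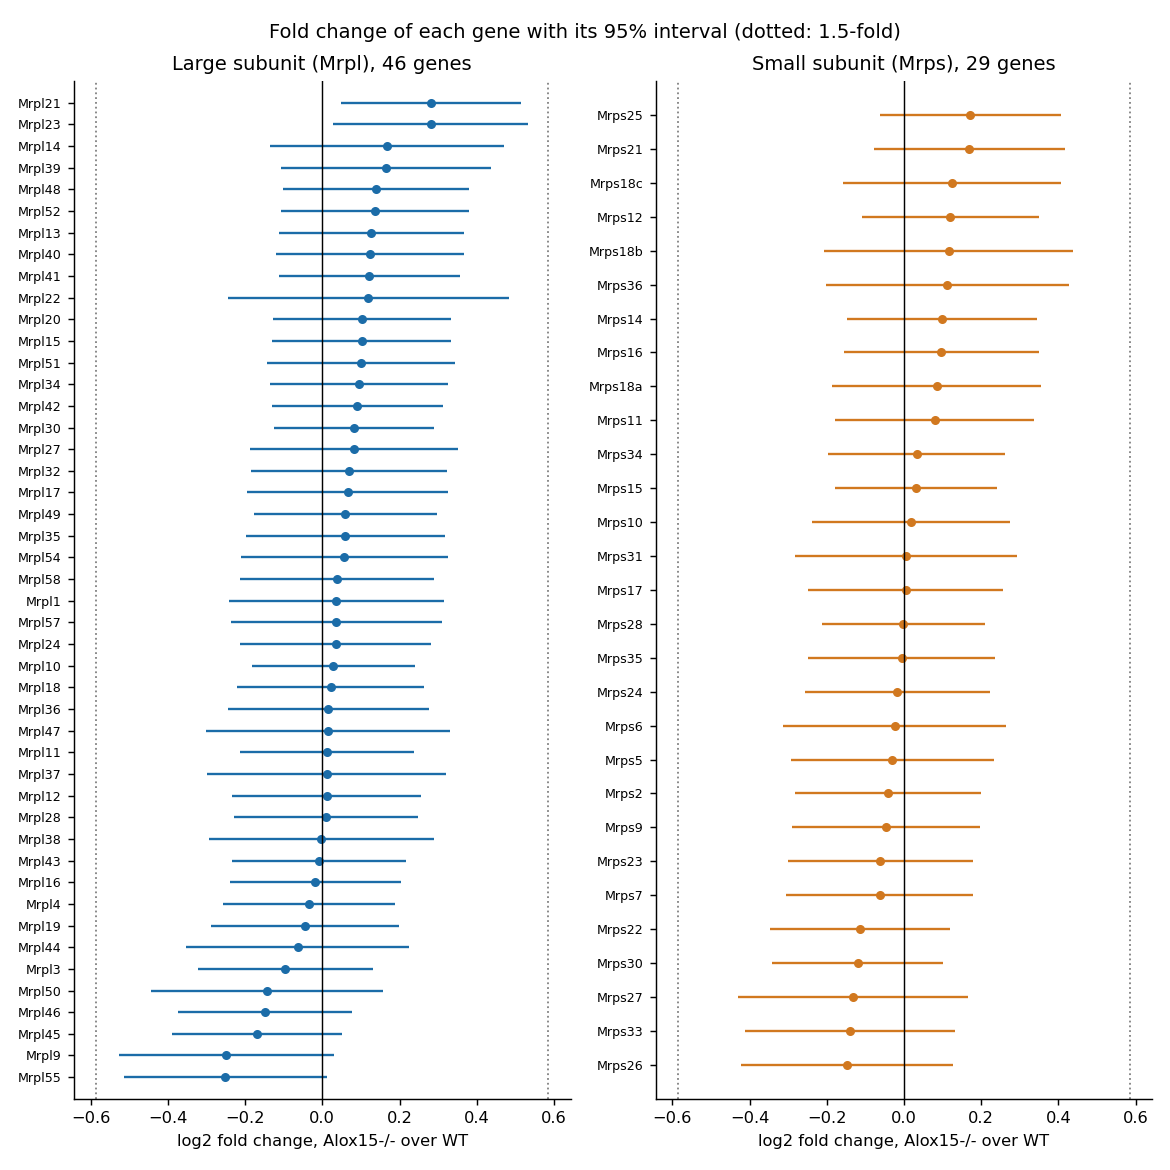
Fitted log2 fold change (libraries labelled Alox15-/- over WT, n = 4 each) of the 46 Mrpl genes (left) and 29 Mrps genes (right), ordered by value. Points are estimates, bars are 95% intervals of the quasi-likelihood fit, and dotted lines mark a 1.5-fold change; every bar ends inside the dotted lines, and the intervals of Mrpl21 and Mrpl23 alone leave out 0.

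The subunits were next taken apart. In the large subunit 34 genes had a fold change above 0 and 12 below, with a median log2 fold change of 0.037. In the small subunit 15 lay above and 14 below, with a median of 0.004. Over all genes tested 48.2% lay above 0 and the median was -0.007, and in the members' CPM range 2860 of 6781 genes lay above 0 and the median was -0.028. The counts rested on single libraries: 49 of the 75 lay above 0 with all libraries, but 31 without library 3 labelled Alox15-/-, 34 without WT library 3 and 57 without library 1 labelled Alox15-/-. The median of the large subunit turned to -0.014 without library 3 labelled Alox15-/- and to -0.005 without WT library 3, and stood at 0.103 without library 1 labelled Alox15-/-.

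Many of these proteins descend from the ribosome of the bacterial ancestor, and others were added in the mitochondrion. In the large subunit the 28 proteins with a bacterial counterpart had a median log2 fold change of 0.036 and the 18 mitochondria-specific ones 0.047. In the small subunit the medians were 0.011 for 16 proteins with a counterpart and -0.034 for 10 without. These medians are descriptions, and no difference between the classes was tested. Some names also mislead about position. Mrps18a and Mrps30 sit in the large subunit, and Mrps36 was later recognised as a component of the 2-oxoglutarate dehydrogenase complex. With these moved, the medians were 0.037 over 48 large and 0.001 over 26 small subunit genes.

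Summed over its genes, the large subunit came to 3056.8, 3385.5, 3743.9 and 3448.8 CPM in libraries 1 to 4 labelled Alox15-/- and to 3286.8, 3513.4, 3038.6 and 3417.3 CPM in WT libraries 1 to 4 (CPM of members on library sizes scaled by the TMM method, the trimmed mean of log ratios). The lowest and the highest of the 4 libraries labelled Alox15-/- enclosed nearly the whole WT range. The group means were 3408.7 ± 281.9 and 3314.0 ± 205.8 CPM (SD, n = 4 each), a difference of 2.86% that is smaller than either SD. The small subunit came to 1853.2, 1994.5, 2215.7 and 2056.0 CPM against 1997.9, 2123.5, 1838.5 and 2134.2 CPM, and its means of 2029.8 ± 150.2 and 2023.5 ± 138.0 CPM differed by 0.313%. Here too the groups overlapped, and the same library was highest in the group labelled Alox15-/-. The ratio of the large to the small sum stayed between 1.60 and 1.70 in the 8 libraries, and both subunits together took 0.499% to 0.576% of all counts.

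**Figure D2:**
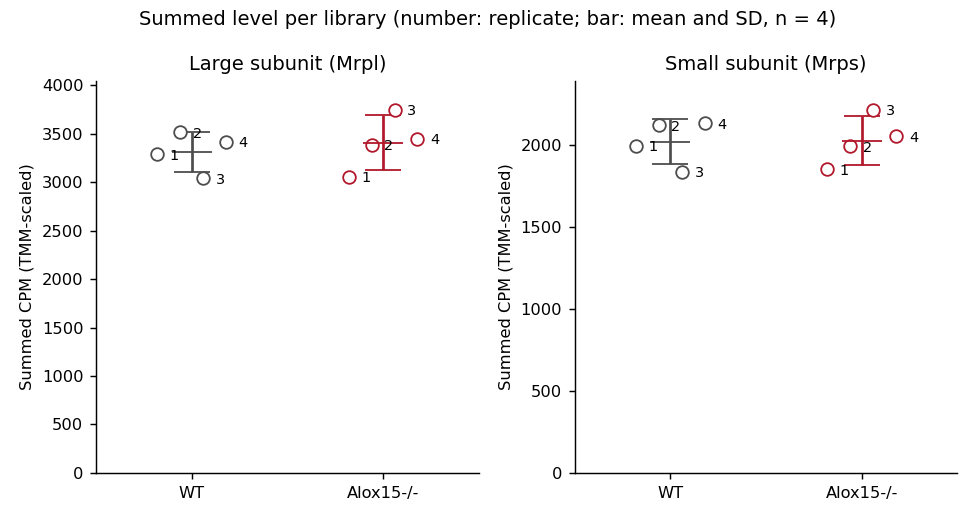
Summed level (TMM-scaled CPM, axis from 0) of the 46 Mrpl genes (left) and the 29 Mrps genes (right) in each library. Open circles are libraries with their replicate number, bars the mean and SD of 4 libraries; the groups overlap for both subunits, with library 3 highest among those labelled Alox15-/- and library 3 lowest among WT.

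Although the groups overlapped, the genes of the mitochondrial ribosome moved together from library to library within each group. On the log2 scale their mean deviation from the mean of their own group was -0.14, -0.02, 0.13 and 0.03 in libraries 1 to 4 labelled Alox15-/-. It was -0.02, 0.08, -0.12 and 0.05 in WT libraries 1 to 4. Library 1 was thus the low one of the group labelled Alox15-/- and library 3 its high one, while library 3 was the low one of WT. Of the 75 genes, 69 (92%) lay below their group mean in library 1 labelled Alox15-/- and 6 (8%) in library 3, and 62 (82.7%) did so in WT library 3 and 14 (18.7%) in WT library 2. Over all genes tested the same shares were 49.7%, 48.9%, 48.1% and 49.3%, which the scaling itself holds near the middle.

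Both subunits showed it. The mean deviation of the large subunit genes was -0.15 in library 1 and 0.13 in library 3 labelled Alox15-/-, and that of the small subunit genes -0.12 and 0.13. In WT library 3 both stood at -0.12. Single genes repeated the order: library 1 held the lowest value of the group labelled Alox15-/- for 50 of 75 genes and library 3 the highest for 51, and WT library 3 held the lowest value of its group for 52. WT library 3 was also the deepest library, at 9538962 counts, and had the highest Foxp3 of all, at 203.1 CPM. Library 1 labelled Alox15-/-, low as well, was among the shallow ones, at 4092606 counts, and had the lowest Foxp3 of all, at 72.6 CPM. The part of depth, of cell composition and of RNA quality in this pattern was not tested.

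**Figure D3:**
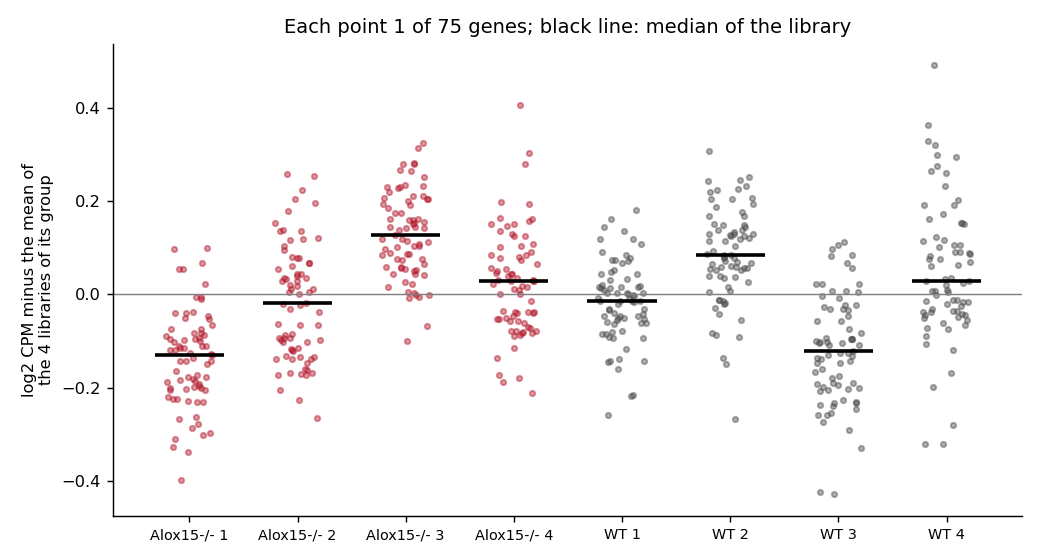
Difference between each gene's log2 CPM in a library and its mean over the 4 libraries of the same group, for the 75 Mrpl and Mrps genes. Each point is 1 gene and black lines are medians; most points of library 1 labelled Alox15-/- and of WT library 3 lie below 0 and most of library 3 labelled Alox15-/- lie above it.

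The likeness of each gene to the rest was described by the Pearson correlation, over the 8 libraries, of its deviations from the group means (log2 CPM) with the mean deviation of the other members. The median r was 0.67, and 74 of the 75 values were above 0. The same measure over 12622 other genes tested had a median of -0.03, with 47.7% above 0. The 8 points share their library, its depth and its scaling factor with every gene compared, so r is given without a test. Mrps27, a mitochondria-specific protein of the small subunit that belongs to the pentatricopeptide repeat family, followed the rest most closely, with r = 0.98. It stood at 37.5, 43.5, 57.8 and 47.9 CPM in libraries 1 to 4 labelled Alox15-/- and at 50.8, 55.4, 42.8 and 57.0 CPM in WT libraries 1 to 4, low where the sums were low and high where they were high. At the other end were Mrps9, the counterpart of a bacterial protein of the small subunit head, with r = -0.06, and Mrpl22, which lines the exit tunnel, with r = 0.10.

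The proteins of the cytosolic ribosome, a list added after the data were seen, were also low in library 1 and high in library 3 labelled Alox15-/- and low in WT library 3, but stood apart in WT library 1. Their median r with the mean of the mitochondrial ribosomal proteins was 0.80 over 76 genes. Their mean deviation was -0.11, -0.06, 0.13 and 0.04 in libraries 1 to 4 labelled Alox15-/- and 0.10, 0.06, -0.23 and 0.07 in WT libraries 1 to 4. In WT library 1, where the cytosolic list was highest within WT and 3 of its 76 genes lay below the group mean, 42 of the 75 mitochondrial ribosomal proteins lay below theirs. The genes that build or assist the mitochondrial ribosome had another order. The mean deviation of the 24 assembly factors was -0.02, 0.02, 0.02 and -0.03 in libraries 1 to 4 labelled Alox15-/- and -0.02, -0.04, 0.01 and 0.05 in WT libraries 1 to 4. That of the 15 translation factors was -0.02, -0.11, 0.04 and 0.08 and, in WT, 0.00, 0.00, -0.01 and 0.02, so that they stood further from their group mean than the ribosomal proteins in libraries 2 and 4 labelled Alox15-/- and closer to it in libraries 1 and 3. These lists lay at lower levels, with median levels of 16.9 and 21.7 CPM, and no difference between lists was tested.

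Levels of single members spanned a 12.9-fold range, from 18.9 to 244.4 CPM, with a median of 63.5. Since MACE-seq takes a tag from the 3′ end of a transcript, CPM was not divided by transcript length, and levels of different genes also depend on how well each 3′ end is captured. The median level was 67.2 CPM for the large and 53.9 CPM for the small subunit, and 14 genes exceeded 100 CPM. The 10 most abundant genes made up 28% of the sum. Read counts ran from 65 to 2260 per gene and library, so no member rested on a handful of reads.

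Mrps28, the mitochondrial counterpart of bacterial protein S1, was the most abundant. It stood at 221.8, 249.7, 256.8 and 248.6 CPM in libraries 1 to 4 labelled Alox15-/- and at 233.5, 280.9, 226.8 and 237.4 CPM in WT libraries 1 to 4. The groups overlapped throughout, and the log2 fold change was -0.002, with an interval from -0.21 to 0.21. Next among the small subunit genes were Mrps6, a protein of the platform, which averaged 149.3 CPM over all libraries, and Mrps24, a protein of the mRNA entry side, at 134.3 CPM. Their log2 fold changes were both -0.02. Mrps6 was one of the less even genes in WT, from 110.1 CPM in library 3 to 186.2 CPM in library 4.

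In the large subunit the leading genes were Mrpl52, Mrpl12 and Mrpl30. Mrpl52, a mitochondria-specific protein, stood at 159.8, 183.8, 184.6 and 189.2 CPM in the libraries labelled Alox15-/- and at 172.0, 177.3, 129.1 and 175.8 CPM in WT. WT library 3 lay well under the other 7 libraries, and the groups otherwise overlapped, with a log2 fold change of 0.14 (SE 0.11) that was 0.04 without that library. Mrpl12 forms the flexible stalk that recruits translation factors, and has also been reported to bind the mitochondrial RNA polymerase. It averaged 166.8 ± 24.2 and 165.8 ± 15.2 CPM (SD, n = 4 each), with a log2 fold change of 0.01. Its neighbours at the stalk base were as close, at 0.03 for Mrpl10 and 0.01 for Mrpl11. Mrpl30 averaged 155.9 ± 12 and 147.4 ± 9.27 CPM and had a log2 fold change of 0.08 (SE 0.10).

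The least abundant members were Mrpl22 at 18.9, Mrpl50 at 32.9 and Mrpl55 at 33.1 CPM in the large subunit, and Mrps36 at 22.7, Mrps31 at 24.5 and Mrps18c at 33.1 CPM in the small. Apart from Mrpl55, their log2 fold changes lay between -0.14 for Mrpl50 and 0.12 for Mrpl22 and Mrps18c. Mrpl22 had the widest interval of these, from -0.24 to 0.48. Its high mean in the group labelled Alox15-/- came from library 4, at 25.6 CPM, against 16.8 to 18.4 CPM in the other 3 and 14.4 to 20.7 CPM in WT, and without that library the log2 fold change was -0.05.

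**Figure D4:**
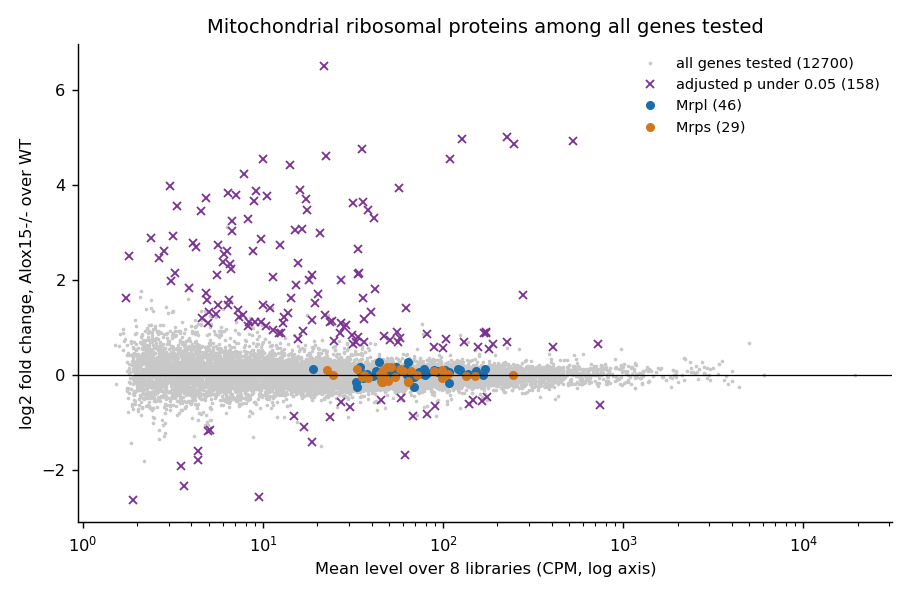
Mean level over 8 libraries (CPM, log axis) against the log2 fold change, libraries labelled Alox15-/- over WT, for all 12700 genes tested. Crosses are the 158 genes with an adjusted p under 0.05 and filled circles the Mrpl and Mrps genes, which lie between 18.9 and 244.4 CPM and between -0.25 and 0.28 with no cross among them.

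The genes with the largest fold changes were then examined one by one. Mrpl21, a large subunit protein with a bacterial counterpart, lies at chr19:3282901-3292837 on the plus strand (GRCm38). It stood at 67.0, 65.6, 74.7 and 73.8 CPM in libraries 1 to 4 labelled Alox15-/- and at 57.9, 66.6, 51.2 and 56.4 CPM in WT libraries 1 to 4. WT library 2 lay above library 2 labelled Alox15-/-, and the other 3 WT libraries lay below that whole group. The log2 fold change was 0.28 (SE 0.11; interval 0.05 to 0.51), with an unadjusted p of 0.0209 and an adjusted p of 0.502 by edgeR's quasi-likelihood test.

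Mrpl23, which sits at the mouth of the exit tunnel, lies at chr7:142532686-142540747 on the plus strand. Its levels were 45.2, 49.4, 52.3 and 46.2 CPM in the libraries labelled Alox15-/- and 41.0, 46.0, 34.3 and 37.8 CPM in WT. Again WT library 2 overlapped the other group while the other 3 WT libraries lay below it. The log2 fold change was 0.28 (SE 0.12), with an unadjusted p of 0.0316 and an adjusted p of 0.567 by the same edgeR test. A pseudogene listed apart, Mrpl23-ps1, was at 60.1 ± 5.67 and 52.5 ± 3.91 CPM (SD, n = 4 each), more than Mrpl23 itself, and reads may be split between these copies. With their counts summed, an analysis added after the data were seen, the log2 fold change of Mrpl23 was 0.23 (SE 0.11; adjusted p = 0.622, edgeR's quasi-likelihood test).

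Mrpl55 and Mrpl9 lay at the other end, each with a log2 fold change of -0.25. Mrpl55 was at 29.3, 29.7, 33.3 and 28.5 CPM in the libraries labelled Alox15-/- and at 32.6, 40.3, 32.6 and 38.6 CPM in WT. Library 3 labelled Alox15-/- was above 2 WT libraries, and the rest of that group lay below all of WT. Its interval ran from -0.51 to 0.01. Mrpl9, at chr3:94443318-94451130 on the plus strand, was at 55.5, 57.0, 62.6 and 77.1 CPM against 74.2, 68.2, 68.7 and 90.8 CPM. Library 4 was the highest of either group, and the library labelled Alox15-/- with that number overlapped WT. The interval of Mrpl9 ran from -0.53 to 0.03, and with 1 library left out its fold change lay between -0.36 and -0.15.

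The remaining genes at the ends of the large subunit were Mrpl45 and Mrpl46 below 0 and Mrpl14 and Mrpl39 above it. Mrpl45, which anchors the ribosome to the inner membrane near the tunnel exit, averaged 101.9 ± 11 and 114.8 ± 5.61 CPM (SD, n = 4 each), with a log2 fold change of -0.17 (SE 0.10). Mrpl46 averaged 43.4 ± 2.42 and 48.2 ± 3.21 CPM, with -0.15 (SE 0.11). Mrpl14, at the face that meets the small subunit, had 0.17 (SE 0.14) and Mrpl39 0.16 (SE 0.13). The groups overlapped in all 4, and no adjusted p was below 0.756 in the edgeR test.

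In the small subunit the fold changes were narrower. Mrps25 was at 51.2, 46.4, 60.4 and 48.7 CPM in the libraries labelled Alox15-/- and at 44.9, 45.6, 46.7 and 46.6 CPM in WT, where the 4 libraries nearly coincided. Library 2 labelled Alox15-/- fell within the WT values, and the log2 fold change was 0.17 (SE 0.11). Mrps21 had 0.17 (SE 0.12), Mrps18c 0.12 (SE 0.13) and Mrps12, a protein of the decoding centre, 0.12 (SE 0.11). At the low end were Mrps26 with -0.15 (SE 0.13), Mrps33 with -0.14 (SE 0.13), Mrps27 with -0.13 (SE 0.14) and Mrps30 with -0.12 (SE 0.10). Single libraries moved these values: with 1 library left out Mrps26 ran from -0.22 to -0.03, Mrps33 from -0.21 to -0.07, Mrps27 from -0.25 to -0.04 and Mrps18c from 0.02 to 0.19. The lowest adjusted p of the small subunit was 0.774 in the edgeR test. Of the misleadingly named genes, Mrps18a had 0.08 (SE 0.13) and Mrps36 0.11 (SE 0.15). Without library 3 labelled Alox15-/- these were 0.005 and 0.03, and over all libraries left out in turn they reached 0.18 and 0.19. With the counts of its pseudogenes Mrps36-ps1 and Mrps36-ps2 added, Mrps36 had 0.19 (SE 0.11).

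The members lie on 17 chromosomes, and 11 are on chromosome 11, which also holds Alox15. Within 20 Mb of Alox15 are Mrpl55, Mrpl22 and Mrps23, at 11.1, 12.2 and 17.9 Mb. Their log2 fold changes were -0.25, 0.12 and -0.06, and the median over the 11 genes of that chromosome was -0.002. In the GENCODE annotation 34 of the 75 genes overlap a gene on the opposite strand, among them Mrpl21 with Ighmbp2, Mrpl9 with Oaz3, Mrpl14 with Tmem63b and Mrps25 with Nr2c2, and 10 overlap another gene on the same strand. Mrpl46 and Mrps11 overlap head to head, at their starts, away from the 3′ ends that MACE-seq counts. Whether counting used strand was not stated, so reads from bases that a pair shares cannot be assigned to one of them, and how many reads fall there was not tested.

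Promoters of the family were read to see what the members share beyond the name. Nuclear genes for mitochondrial proteins are often driven by promoters without a TATA box that bind NRF1, factors of the ETS family such as GABP (also called NRF2), and YY1. RefSeq (GRCm38.p6) gave 70 windows of 300 bases, from 250 before to 50 after the transcription start, for 66 of the 75 genes, and each motif was searched on both strands. The NRF1 letters, GCGCA followed by any base and GCGC, were in 13 windows (18.6%) against 4.6% of all 32851 windows. The ETS letters CCGGAAG were in 24 (34.3%) against 8.86%, and the YY1 letters AAGATGGC in 12 (17.1%) against 2.75%. At least 1 of the 3 was in 41 windows (58.6%) against 14.7%, and 3 windows held both the ETS and the YY1 letters, with no overlap between the matches. The TATA letters TATAAA were less frequent, in 5 windows (7.14%) against 13.6%. The windows of the family were also rich in CG dinucleotides, with a median of 21 against 7, and the part of this in the shares was not tested. A match in letters is a description and not a bound site.

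By subunit, the NRF1 letters were in 23.3% of 43 large and 11.1% of 27 small subunit windows, the ETS letters in 30.2% and 40.7%, and the YY1 letters in 14% and 22.2%. To show the kind of sequence, 90 bases upstream of the start of 6 genes are given, 5′ to 3′ on the strand of the gene, with the NRF1 or ETS letters in capitals. Mrpl12, Mrpl45, Mrpl52 and Mrpl22 were taken from the members described above, for their level or their place at an end of the fold changes, and Mrpl43 and Mrps22 were picked after the values were seen, the first for its pair of ETS matches and the second for the small subunit. The stretches are chr11:120484491-120484580 (plus strand) for Mrpl12, chr11:97315613-97315702 (plus) for Mrpl45, chr14:54426794-54426883 (plus) for Mrpl52, chr11:58171543-58171632 (plus) for Mrpl22, chr19:45006443-45006532 (minus) for Mrpl43 and chr9:98601680-98601769 (minus) for Mrps22.
Mrpl12: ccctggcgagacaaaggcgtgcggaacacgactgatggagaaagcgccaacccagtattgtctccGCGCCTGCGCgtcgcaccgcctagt
Mrpl45: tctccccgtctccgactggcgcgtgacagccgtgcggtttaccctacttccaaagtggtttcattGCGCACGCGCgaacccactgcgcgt
Mrpl52: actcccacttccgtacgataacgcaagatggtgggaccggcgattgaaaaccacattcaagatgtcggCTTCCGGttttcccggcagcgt
Mrpl22: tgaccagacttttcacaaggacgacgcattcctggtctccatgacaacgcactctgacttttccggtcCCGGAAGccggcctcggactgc
Mrpl43: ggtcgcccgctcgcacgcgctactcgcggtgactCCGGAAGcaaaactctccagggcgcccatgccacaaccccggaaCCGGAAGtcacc
Mrps22: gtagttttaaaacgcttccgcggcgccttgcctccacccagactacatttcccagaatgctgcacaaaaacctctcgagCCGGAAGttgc

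The NRF1 letters marked stand on the given strand in Mrpl45 and on the other strand in Mrpl12. Mrpl45 has 2 NRF1 matches before its start, and the stretch holds only the nearer. The ETS letters stand on the given strand in Mrpl22, Mrpl43 and Mrps22 and on the other strand in Mrpl52. The genes that share the ETS letters here did not share a direction of fold change: Mrpl52 and Mrpl22 had log2 fold changes of 0.14 and 0.12, Mrps22 -0.11 and Mrpl43 -0.009, and none passed the test.

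**Figure D5:**
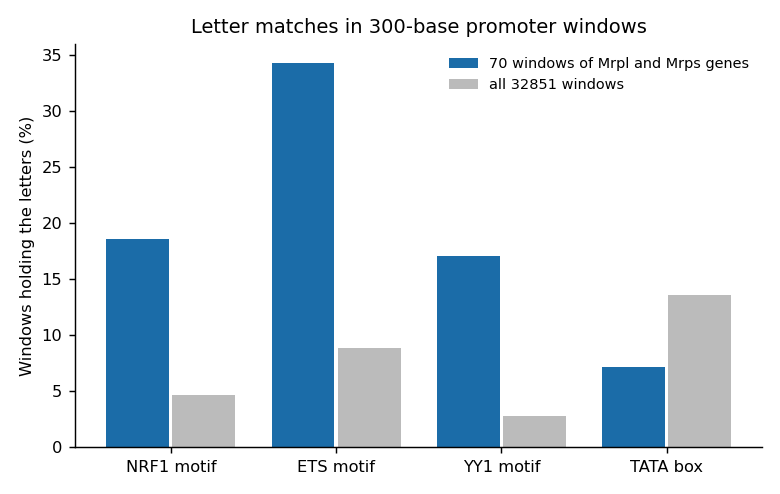
Share of 300-base promoter windows (percent, axis from 0) that hold the letters of each motif on either strand, for 70 windows of Mrpl and Mrps genes and for all 32851 windows. The NRF1, ETS and YY1 letters are in a larger share of the family's windows (18.6%, 34.3% and 17.1%) than of all windows, and the TATA letters in a smaller one (7.14% against 13.6%).

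The factors named by those motifs and the coactivators of mitochondrial biogenesis were measured as well. Of 12 such genes 11 were tested and none passed the edgeR test. Their log2 fold changes ran from -0.18 for Pprc1, a coactivator related to PGC-1α, to 0.20 for Ppargc1b. Ppargc1a, which encodes PGC-1α, had 0 to 3 counts a library and was not tested. Nrf1 was at 49.9 ± 3.75 CPM in the libraries labelled Alox15-/- and 56.2 ± 3.27 CPM in WT (SD, n = 4 each), with a log2 fold change of -0.17 (SE 0.10). Gabpa had 0.13 (SE 0.12), Yy1 -0.10 (SE 0.09), Tfam, the factor that packages mitochondrial DNA, 0.02 (SE 0.11) and Myc -0.01 (SE 0.18).

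Of the proteins of the mitochondrial ribosome with other names, all 5 were tested and none passed, from -0.16 for Dap3, a GTP-binding protein of the small subunit, to 0.14 for Gadd45gip1 of the large subunit. The 2 ribosomal RNAs of the organelle had -0.16 (SE 0.17) for mt-Rnr1 and -0.11 (SE 0.11) for mt-Rnr2. Of 24 assembly factors none passed, 10 lay above 0 and 14 below, and the median log2 fold change was -0.046. The lowest was Mrm3, which methylates the RNA of the large subunit. It stood at 9.13, 9.45, 9.22 and 11.4 CPM in the libraries labelled Alox15-/- and at 11.9, 13.1, 12.6 and 16.3 CPM in WT. Here every library labelled Alox15-/- lay below every WT library, as in 5.25% of all genes in either direction, and the log2 fold change was -0.44 (SE 0.17; unadjusted p = 0.0231, adjusted p = 0.517, edgeR's quasi-likelihood test). The highest, Mettl15, a methyltransferase for the small subunit RNA, had 0.25 with an interval from -0.32 to 0.82.

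None of the 15 translation factors passed, with 5 above 0, 10 below and a median of -0.050. Oxa1l, which inserts the newly made proteins into the inner membrane, was at 53.6, 57.8, 63.2 and 64.4 CPM in the libraries labelled Alox15-/- and at 66.1, 68.7, 71.8 and 70.8 CPM in WT. It was the other gene of these lists without overlap between the groups, and its log2 fold change was -0.21 (SE 0.10; adjusted p = 0.65, edgeR's quasi-likelihood test). Mtrf1l, a release factor, had the highest value, 0.19 (SE 0.20). Tufm, the elongation factor that brings tRNA to the ribosome, was at 84.7 ± 11.4 and 88.4 ± 15.6 CPM, and Slirp and Lrpprc, which together stabilise mitochondrial mRNA, had 0.14 (SE 0.11) and -0.03 (SE 0.12).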

How the data were processed

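MACE-seq libraries of day 2 Tregs from 4 Alox15-/- and 4 WT mice were compared. The authors deposited 1 table of raw counts per gene symbol and library, without normalization, from reads that the labels describe as trimmed. Bowtie, edgeR and the build GRCm38 are named in the submitters' processing notes without role or version, and the counting tool, its use of strand and the treatment of duplicate reads are not given in the sources used here. The labels name a small RNA kit where the methods name a MACE-Seq kit. Totals of 3723151 to 9538962 counts per library set the counting error.

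Every gene that reached 2 CPM in 4 or more libraries was tested by edgeR 4.0.16 in R 4.3.3 (TMM scaling, glmQLFit and glmQLFTest, group as the only term, two-sided, Benjamini-Hochberg adjustment over 12700 genes, threshold 0.05). The same design was also run on counts simulated from the means and dispersions of these data. The coverage of the intervals was not tested there. Standard errors were taken from the F statistic, and intervals are at 95%. Coordinates are from GENCODE M21 on GRCm38 and promoters from RefSeq on GRCm38.p6. No 2 libraries of a group agreed within sampling noise.

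The rule named, in each subunit, the 4 highest and 4 lowest fold changes, the 3 highest and 3 lowest levels, members past the threshold or without overlap between groups, members within 20 Mb of Alox15, Mrps18a, Mrps30 and Mrps36, and the ends of each list of related genes. Any other gene was picked with its values in view. The members and lists were chosen with earlier results of these data known. Alternatives were DESeq2 size factors, upper quartile scaling, no filter, filterByExpr, DESeq2 1.42.0, limma-voom (limma 3.58.1), a replicate block, leaving out each library and, added after seeing the data, summing pseudogenes with their parent genes.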

Additional observations from a re-analysis of the deposited data

Results flagged for a closer look

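Within each group, the highest and lowest library of each gene named by the rule and of the summed levels were compared with the other libraries of that group by Dixon's ratio of gap to range. Of 60 such series of 4 libraries 2 stood out, and chance alone sets off about 1 in 20. In both it was WT library 3 that lay below the other 3 WT libraries. The mean deviation of all 75 members in that library was -0.12 on the log2 scale. Mrpl45 was at 106.5 CPM there and at 116.7 to 118.2 CPM in the others, which nearly coincided. A small gap gives a large ratio in such a case. Mrpl52 was at 129.1 CPM there and at 172.0 to 177.3 CPM in the others.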

How the results depend on the processing

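None of the 75 members passed the threshold under any of the 16 alternatives, whose lowest adjusted p for a member ran from 0.381 to 0.738, while 1 to 3 had an unadjusted p under 0.05. The count over all genes was 388 without a filter, 140 to 194 with the other scalings, filters and tools, and 86 to 173 with 1 library left out. Without libraries 1, 2 and 3 labelled Alox15-/- it was 95, 86 and 93, and without WT library 2 it was 105. Leaving out 1 library gave medians of -0.014 to 0.103 for the large and -0.032 to 0.069 for the small subunit, and the other alternatives 0.017 to 0.066 and -0.017 to 0.033. Upper quartile scaling moved the median of all genes to 0.021 and put 56 members above 0, against 49 as reported and 40 without a filter.

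Of 28 named members, 22 kept their sign under every alternative, but leaving out 1 library moved 18 of these by over 1.5 times. The other 4, Mrpl21 (0.23 to 0.36), Mrpl23 (0.22 to 0.36), Mrpl55 (-0.30 to -0.19) and Mrpl46 (-0.18 to -0.11), moved by less. Of the 18, the ranges nearest to 0 were 0.005 to 0.18 for Mrps18a, 0.02 to 0.19 for Mrps18c and -0.11 to -0.02 for Mrps23. Mrps28 turned to 0.002 with DESeq2 size factors, 0.03 with upper quartile scaling, and 0.003 with DESeq2 and with limma-voom. Mrps24 turned to 0.01 with upper quartile scaling, and Mrps6 to 0.003 with it and 0.006 with limma-voom. Without a filter Mrpl12 turned to -0.01 and Mrps31 to -0.02. With 1 library left out the ranges were -0.03 to 0.07 for Mrps28, -0.06 to 0.07 for Mrps24, -0.15 to 0.10 for Mrps6, -0.07 to 0.07 for Mrpl12, -0.05 to 0.06 for Mrps31 and -0.05 to 0.19 for Mrpl22. The cause of these turns was not tested, and every one of these values lies inside its gene's 95% interval.

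The replicate numbers are shared by the groups, but same-numbered libraries did not deviate together, with correlations of 0.0691, 0.165, -0.178 and -0.0177. With the replicate block 146 genes and no member passed, the lowest adjusted p of a member was 0.642, and Mrps28 turned to 0.001 and Mrps31 to -0.00029. With 65 to 2260 reads per member and library and 4 libraries a group, the intervals given show how closely each difference was measured. The part of depth and of variation between replicates in their width was not tested.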
